A study of Homo sapiens with 16 samples.

Results

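The mitochondrial ribosomal protein genes were taken as every protein-coding gene of GENCODE release 44 whose symbol begins with MRPL or MRPS followed by a number. The rule found 78 genes, 49 MRPL and 29 MRPS, among the 60676 rows of the gene count table, and all 78 passed the filter on low counts. The counts came from poly(A)-selected RNA of THP-1 cells, a human monocytic leukemia line, in 16 libraries that formed 8 groups of 2. Lines carrying a stably integrated lentiviral hairpin (pLKO.1) had been selected with puromycin after infection. The label shNC stands for the control hairpin. The labels shUHRF1, shDNMT1 and shDNMT3B stand for hairpins against the hemimethylated DNA reader UHRF1 and the DNA methyltransferases DNMT1 and DNMT3B. Each line was sampled after 48 h in DMSO, the solvent control, or in 100 ng/ml PMA, a phorbol ester that turns THP-1 monocytes into macrophage-like cells. Every group, the controls included, thus carried a hairpin vector and had been through selection. Nothing in the labels says whether the 2 libraries of a group came from separate cultures, so p-values measure the spread between these libraries only. In 12 of the 16 samples the description named another condition than the title, and columns were assigned by the condition in their own names.

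Mitochondria keep their own ribosome, which makes the few respiratory chain subunits encoded by mitochondrial DNA. Its ribosomal RNAs are transcribed inside the organelle, whereas all of its proteins are encoded in the nucleus, made in the cytosol and imported. Part of the proteins descend from bacterial ribosomal proteins and part were added in the mitochondrial lineage. By this division the genes comprised 30 large subunit proteins with a bacterial homologue and 21 without, and 16 small subunit proteins with a bacterial homologue and 10 without. MRPS18A and MRPS30 were counted with the large subunit, where their proteins sit despite the symbols. MRPS36 stood in no class, since its product is now known as a component of the 2-oxoglutarate dehydrogenase complex.

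The genes lay on 21 chromosomes. For 26 of the 78 (33.3%) another protein-coding gene began within 1000 bases in a head-to-head arrangement, compared with 9.5% of the 20046 protein-coding genes of the annotation. Promoters of 69 of the 78 were matched in RefSeq (GRCh38.p14, 250 bases before to 50 bases after the first listed start). Their median ratio of observed to expected CpG was 0.879, against 0.58 over the 27305 promoters of the table and 0.767 over its 15325 protein-coding promoters, and 67 of the 69 were above 0.6, as were 66.5% of the protein-coding ones. Motifs of 7 factors were searched as exact letters on both strands, and their shares are given for the 69 promoters first and for the protein-coding promoters second. The motif CCGGAAG, bound by ETS factors such as GABPA, occurred in 29 of the 69 (42.0%, against 14.4%), and the YY1 motif AAGATGGCG in 13 (18.8%, against 2.8%). GGGCGG for SP1 was held by 60.9% against 59.3%, GCGCATGCG for NRF1 by 4.35% against 2.73%, the MYC E-box CACGTG by 8.7% against 8.89%, and CCAAT for NFY by 29.0% against 36.6%. TGACGTCA for CREB was found in 0 of the 69 and in 2.64% of the protein-coding promoters. No motif contains another, but CCGGAAG ends in the AAG with which AAGATGGCG begins. Of the 14 YY1 matches 10 began after the start site on the strand of the gene. Among the 31 promoters of genes that fell with PMA in shNC the ETS motif was held by 11, and among the other 38 by 18, while the YY1 motif was held by 2 and 11. Matches describe the letters only.

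The 120 bases before the start are shown for 5 genes that stand at the ends of the PMA response in shNC, the 3 with large falls (MRPL11, MRPL1, MRPL22) and the 2 with rises (MRPS10, MRPL32), chosen because no annotated exon lies in the window. Capitals mark the motif matches, which are SP1 at -107 in MRPL1, NRF1 at -24 in MRPL22, ETS at -22 in MRPS10, and SP1 at -22 and -11 in MRPL32. MRPL11 held none of the motifs in this window, and the lowest CpG ratio among the 69 promoters was 0.402, that of MRPL11. The MRPL11 window lies within an intron of a longer annotated transcript of the same gene.
MRPL11, chr11:66438849-66438968, minus strand: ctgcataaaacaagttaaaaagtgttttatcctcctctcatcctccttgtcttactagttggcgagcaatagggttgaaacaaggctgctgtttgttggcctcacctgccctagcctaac
MRPL1, chr4:77862710-77862829, plus strand: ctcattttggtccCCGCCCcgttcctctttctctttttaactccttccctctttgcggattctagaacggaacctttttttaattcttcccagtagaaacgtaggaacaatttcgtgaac
MRPL22, chr5:154940953-154941072, plus strand: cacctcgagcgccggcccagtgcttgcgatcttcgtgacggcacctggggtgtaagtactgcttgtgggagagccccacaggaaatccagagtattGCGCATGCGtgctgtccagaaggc
MRPS10, chr6:42217862-42217981, minus strand: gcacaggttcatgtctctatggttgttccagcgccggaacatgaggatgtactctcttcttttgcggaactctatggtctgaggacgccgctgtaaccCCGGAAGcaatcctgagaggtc
MRPL32, chr7:42932256-42932375, plus strand: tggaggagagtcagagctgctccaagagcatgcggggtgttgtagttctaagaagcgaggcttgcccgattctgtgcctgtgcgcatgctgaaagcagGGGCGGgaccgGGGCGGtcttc

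Library totals ran from 13883556 to 23151864 counts. The hairpin targets were checked first, as mRNA. The authors checked the knockdown of the target proteins by western blot, which these counts do not measure. In DMSO, UHRF1 was at 72.0 and 91.2 CPM (counts scaled to the effective library size) in the libraries labelled shUHRF1 against 87.1 and 123 in shNC, DNMT1 at 82.4 and 111 against 89.6 and 140, and DNMT3B at 6.4 and 6.87 against 8.73 and 9.73, and none of the 3 differences passed the test (adjusted p = 0.605, 0.787 and 0.212). In PMA all 3 targets were higher in the lines labelled for their knockdown. DNMT3B had a log2 fold change of 1.06 (adjusted p = 0.00688), but at low levels, 2.74 and 3.19 against 1.26 and 1.59 CPM. UHRF1 (0.87, adjusted p = 0.129) and DNMT1 (0.45, adjusted p = 0.376) passed only with the block (adjusted p = 0.000375 and 0.00418). The hairpin lines are therefore named in what follows by their labels only. Monocyte and macrophage markers (10 genes) summed to between 577 and 740 CPM in DMSO and between 2467 and 3331 in PMA, and CSF1R rose by a log2 fold change of 4.99 (adjusted p = 1.16e-09) in shNC. Red cell markers (7 genes) reached 490 CPM in the first shNC DMSO library and at most 2.28 elsewhere. Markers of T, B and NK cells (8 genes) lay between 35.3 and 186 CPM, of platelets (4 genes) between 0.631 and 11.5, and of epithelium and fibroblasts (6 genes) between 0.364 and 11.0.

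Per unit of length, the mitochondrial ribosomal protein mRNAs of resting shNC cells spanned a wide range. Levels per length are CPM per kilobase of the canonical transcript, which ran from 496 to 15557 bases (median 1242). Their median in shNC DMSO was 40.4 CPM per kb. The highest was MRPL18, a large subunit protein with a bacterial homologue, at 310 and 179 CPM per kb in the 2 libraries, followed by MRPL37, a mitochondria-specific large subunit protein, at 213 and 143, and MRPL12, part of the stalk that recruits translation factors, at 174 and 104. The lowest were MRPL42 at 3.18 and 2.93, MRPL19 at 4.88 and 3.5 and MRPS11 at 5.83 and 6.8 CPM per kb. The 3 genes at the bottom were separated from each other beyond the spread of their libraries, whereas the 3 at the top overlapped, as did 71 of the 77 neighbouring pairs in the whole order. MRPL42 and MRPL19 also have long canonical transcripts (15557 and 7825 bases), so their place depends on that transcript being the one expressed.

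The family was lower after PMA in the line with the control hairpin. Summed over the 78 genes, the mRNAs took 5344 and 3716 CPM in shNC DMSO and 3486 and 2873 CPM in shNC PMA, so that both PMA libraries lay below both DMSO libraries. Of the 78, 34 fell and 3 rose (edgeR's quasi-likelihood test, Benjamini-Hochberg adjusted over all 16503 tested genes), which is 43.6% and 3.85% of the genes. Over all tested genes 26.0% fell and 28.4% rose. The median log2 fold change of the family was -0.63, against -0.01 over all genes, and 65 of the 78 lay below 0. When the replicate number was kept as a block, 52 fell and 8 rose, with 32.6% and 34.5% of all genes. Fewer genes fell when the first shNC DMSO library, the one with red cell markers, or the second shNC PMA library was left out. The share of all genes in those fits is not given here. Whether the family still fell more often than all genes was therefore not tested. Bulk counts cannot tell fewer cells of a type from less RNA per cell.

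**Figure D1:**
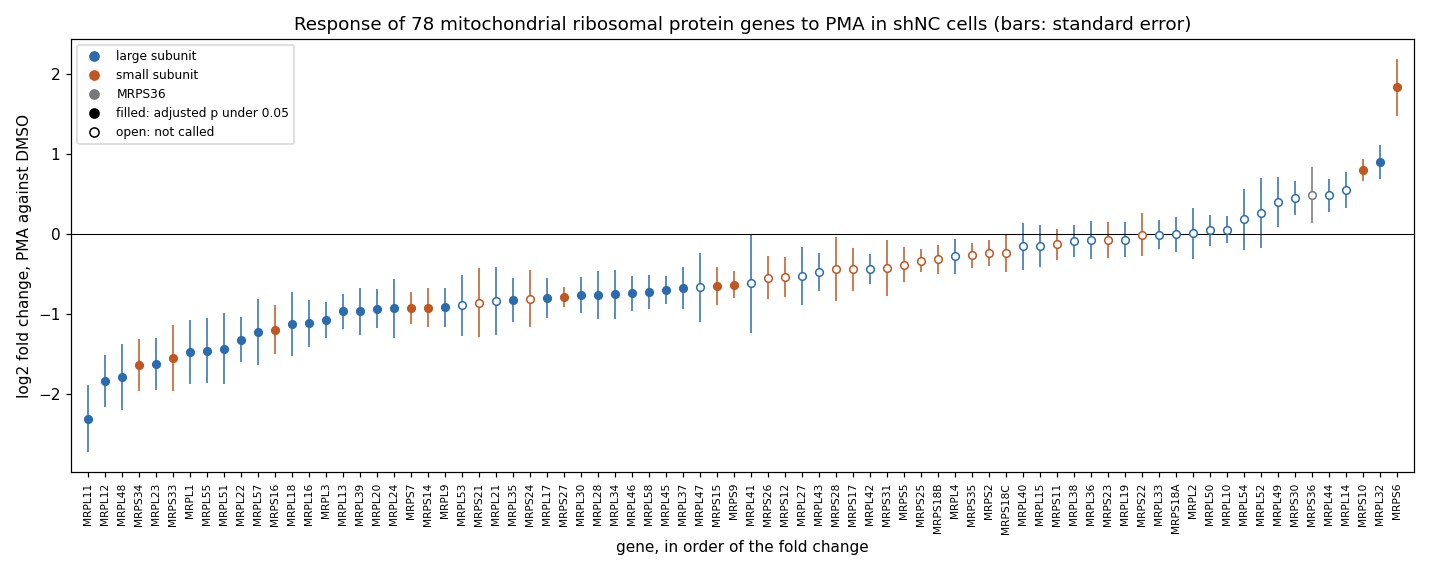
Log2 fold change of each of the 78 genes between PMA and DMSO in shNC cells (y axis), in order of size (x axis), with bars for the standard error of the fit over 2 libraries a group. Filled points are the 34 genes that fell and the 3 that rose, and the points run from -2.31 for MRPL11 to 1.83 for MRPS6.

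By subunit, 26 of the 51 large subunit genes fell and 1 rose in shNC, with a median log2 fold change of -0.72, against 26.0% and 28.4% of all tested genes. Of the 26 small subunit genes 8 fell and 2 rose, with a median of -0.44, a share of falls near that of all genes. With the block 33 large subunit genes fell and 5 rose, and 19 small subunit genes fell and 2 rose, against 32.6% and 34.5% of all genes. Large subunit genes with a bacterial homologue had the lowest median of the 4 classes in shNC (-0.81, 18 of 30 fell) and in the other lines (-0.79, -0.99 and -0.59 in shUHRF1, shDNMT1 and shDNMT3B). The order of the other classes changed between lines: small subunit genes without a bacterial homologue stood at -0.38, -0.61, -0.55 and -0.39 in shNC, shUHRF1, shDNMT1 and shDNMT3B, and large subunit genes without one at -0.48, -0.47, -0.59 and -0.29. The ratio of the summed large subunit to the summed small subunit level was 2.55 and 2.36 in shNC DMSO and 2.1 and 2.02 in shNC PMA. In the 8 DMSO libraries of the 4 lines this ratio lay between 2.27 and 2.55. In the 8 PMA libraries it lay between 1.89 and 2.1, with no overlap. The small subunit sum, 1302 CPM in shNC DMSO and 1030 in shNC PMA, includes MRPS6 and MRPS10. Their shNC means rose from 37.7 and 93.8 to 134 and 163 CPM, so the ratio does not show that large subunit genes in general fell more. Large and small subunit medians were -0.608 and -0.585 in shUHRF1, -0.694 and -0.613 in shDNMT1, and -0.489 and -0.491 in shDNMT3B.

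**Figure D2:**
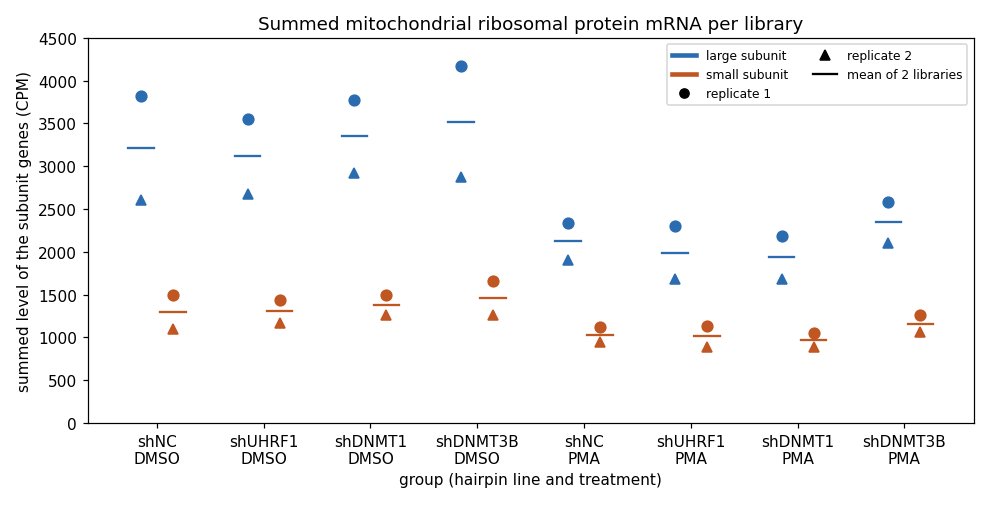
Summed level in CPM (y axis) of the 51 large and 26 small subunit genes in each library, by group (x axis), with circles for replicate 1, triangles for replicate 2 and lines for their mean. Large subunit sums lie between 2601 and 4166 CPM in DMSO and between 1679 and 2588 in PMA, and replicate 1 is the higher library in all 8 groups.

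MRPL11, at the base of the factor-binding stalk, fell furthest (ENSG00000174547, hg38 chr11:66435075-66466738). It was measured at 113 and 56.2 CPM in shNC DMSO and at 19.4 and 14.6 CPM in shNC PMA. The log2 fold change was -2.31 ± 0.42 (SE, n = 2, adjusted p = 0.000505). MRPL12, its neighbour on the stalk (ENSG00000262814, chr17:81703367-81707517), went from 176 and 105 CPM to 42.5 and 36.1 CPM, a log2 fold change of -1.84 ± 0.32 (adjusted p = 0.000347). In both genes the PMA libraries stayed well under the DMSO libraries. Another annotated gene on the same strand (ENSG00000262660) overlaps 69.5% of the exon length of MRPL12, so its counts are uncertain.

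Next in size came MRPL48 (mitochondria-specific, large subunit), at 32.1 and 22.6 CPM in DMSO and 9.67 and 6.06 in PMA, with a log2 fold change of -1.79 ± 0.41 (adjusted p = 0.00261). MRPS34, a mitochondria-specific small subunit protein, went from 169 and 90.7 to 47.0 and 36.4 CPM (log2 fold change -1.64 ± 0.32, adjusted p = 0.000924). Its exons overlap those of EME2 on the opposite strand over 31.2% of their length. MRPL23, which lies at the exit of the nascent peptide tunnel, went from 78.5 and 52.0 to 24.1 and 18.1 CPM (log2 fold change -1.63 ± 0.32, adjusted p = 0.000937), and MRPL22, which lines the tunnel, from 45.0 and 31.2 to 17.0 and 13.5 CPM (log2 fold change -1.32 ± 0.28, adjusted p = 0.00139). None of these genes had overlapping groups, but 38.1% of all tested genes likewise had both shNC PMA libraries below both shNC DMSO libraries. MRPS33, MRPL1, MRPL55 and MRPL51 completed the 10 largest falls with log2 fold changes of -1.55, -1.48, -1.46 and -1.44 (adjusted p = 0.00659, 0.00751, 0.00803 and 0.0152). Their calls were lost when the first shNC DMSO or the second shNC PMA library was left out, with log2 fold changes between -0.86 and -1.26. Exons of NCAPD2 overlap those of MRPL51 on the opposite strand over 27.6% of the MRPL51 exon length.

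MRPS6, MRPL32 and MRPS10 were the 3 genes that rose in shNC. MRPS6 (ENSG00000243927, chr21:34073224-34143034), a small subunit protein with a bacterial homologue, was at 46.9 and 28.5 CPM in DMSO and at 153 and 114 CPM in PMA, a log2 fold change of 1.83 ± 0.36 (adjusted p = 0.000922). Exons of SLC5A3 and of an unnamed gene (ENSG00000272657), both on the same strand, together cover 9.5% of its exon length, so its counts are uncertain. The share of its reads that this touches was not measured. MRPL32 (ENSG00000106591, chr7:42932376-42948958), which must be cut by the matrix protease of the inner membrane before it joins the ribosome, went from 38.6 and 29.3 to 69.8 and 56.7 CPM (log2 fold change 0.90 ± 0.21, adjusted p = 0.00301). MRPS10 (ENSG00000048544, chr6:42206807-42217861) went from 96.6 and 91.0 to 165.5 and 160 CPM (log2 fold change 0.79 ± 0.14, adjusted p = 0.000381), and its libraries lay closest together of the 3. With the replicate block 5 more genes passed upward, MRPL14, MRPL44, MRPS36, MRPS30 and MRPL49, at log2 fold changes between 0.43 and 0.55.

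**Figure D3:**
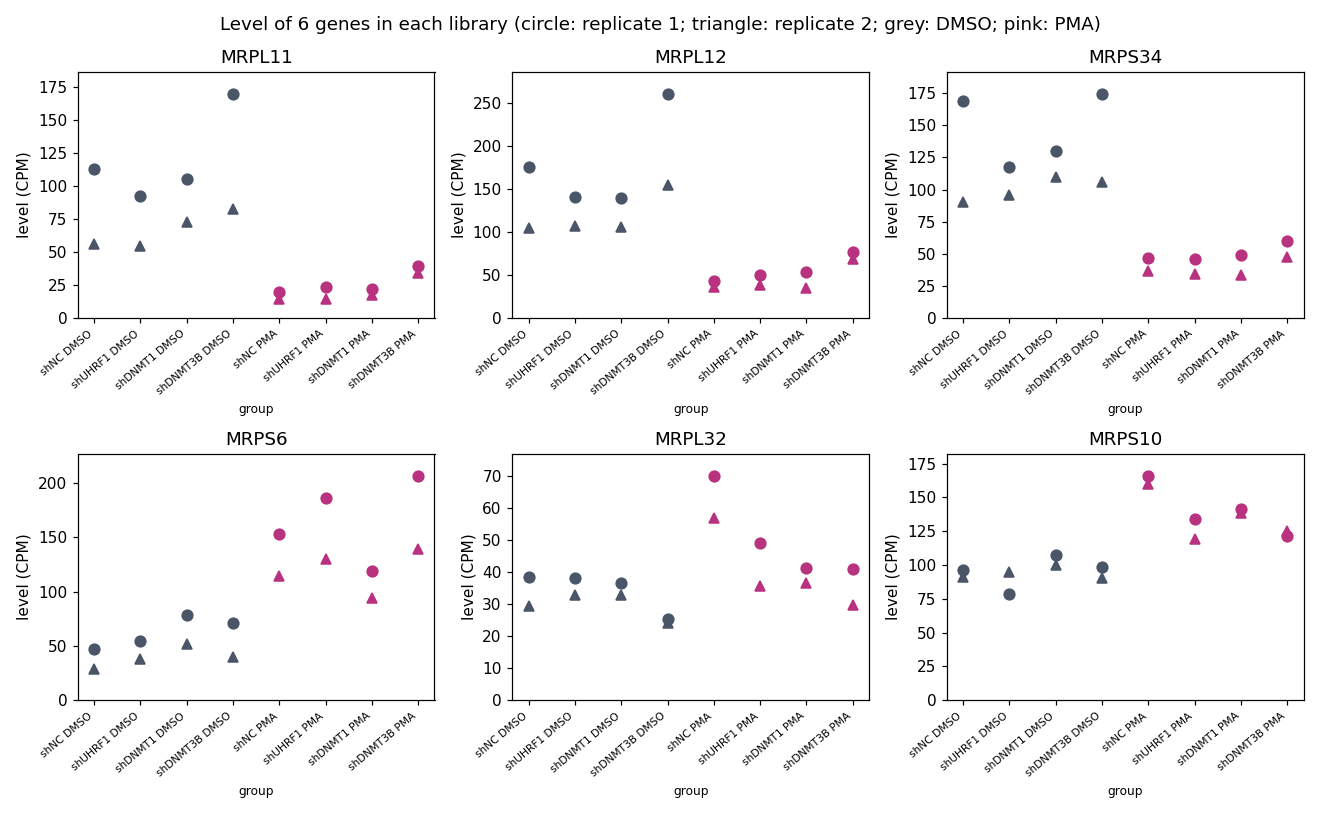
Level in CPM (y axis) of MRPL11, MRPL12 and MRPS34, which fell, and MRPS6, MRPL32 and MRPS10, which rose, in each of the 16 libraries by group (x axis), with circles for replicate 1 and triangles for replicate 2. MRPS10 lies between 78.8 and 107 CPM in the 8 DMSO libraries and between 119 and 165.5 CPM in the 8 PMA libraries.

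Among the genes followed whatever their change, MRPL58 codes for a peptidyl-tRNA hydrolase that frees stalled ribosomes from within the large subunit. It went from 45.1 and 30.8 CPM to 25.5 and 20.4 CPM in shNC, a log2 fold change of -0.72 (adjusted p = 0.0119), a call lost without the first DMSO or the second PMA library. MRPS12, which lines the decoding centre, was at 34.5 and 33.3 CPM in DMSO and 25.5 and 21.1 in PMA, with a log2 fold change of -0.54 that passed only with the block (adjusted p = 0.0817, and 0.0476 with the block). The 3 MRPS18 paralogues, whose products occupy different places in the ribosome, behaved unequally. MRPS18B was at 26.1 and 22.3 CPM in DMSO and 20.4 and 18.4 in PMA (log2 fold change -0.32, adjusted p = 0.159, and 0.0499 with the block). MRPS18C was at 35.5 and 25.6 against 27.4 and 24.2 CPM (adjusted p = 0.416) and MRPS18A at 59.0 and 58.6 against 63.8 and 53.1 CPM (adjusted p = 0.98), with overlapping groups in both. MRPS30 was at 64.5 and 49.8 CPM in DMSO and 86.9 and 68.9 in PMA (log2 fold change 0.45, adjusted p = 0.0875, and 0.00315 with the block). MRPL18, MRPL37, MRPS11, MRPL19 and MRPL42, at the ends of the order of levels, had log2 fold changes of -1.12, -0.68, -0.13, -0.07 and -0.44 (adjusted p = 0.0295, 0.0424, 0.593, 0.799 and 0.0584), and the calls of MRPL18 and MRPL37 were lost without 3 of the 4 libraries in turn, the second DMSO library being the exception.

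The other lines went the same way, each with its own DMSO libraries as reference. In shUHRF1 the summed level was 5009 and 3864 CPM in DMSO and 3467 and 2581 in PMA, and 33 of the 78 genes fell and 2 rose, with 25.5% and 29.4% of all genes. In shDNMT1 it was 5301 and 4209 against 3269 and 2582 CPM, and 40 fell and 1 rose, with 24.1% and 28.6% of all genes. In shDNMT3B it was 5841 and 4147 against 3871 and 3185 CPM, and 22 fell and 2 rose, with 19.7% and 25.2% of all genes. The PMA mean was 70.2%, 68.2%, 61.5% and 70.6% of the DMSO mean in shNC, shUHRF1, shDNMT1 and shDNMT3B. Within the numbered pairs it was between 61.7% and 69.2% for libraries numbered 1 and between 61.3% and 77.3% for those numbered 2. With the block the falls and rises were 54 and 6 in shUHRF1 (32.5% and 35.4% of all genes), 55 and 3 in shDNMT1 (31.0% and 34.4%), and 47 and 6 in shDNMT3B (27.5% and 32.5%). In each of these 3 lines fewer genes fell without the first DMSO library or without the second PMA library of the line. In shDNMT3B this also held without the first PMA library. The shares of all genes in those fits are not given here. The median log2 fold change was -0.58, -0.62 and -0.49 in the 3 lines.

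In shUHRF1 the smallest adjusted p of a fall belonged to MRPS27, a pentatricopeptide repeat protein of the small subunit, at 80.1 and 78.5 CPM in DMSO and 48.5 and 42.1 in PMA (log2 fold change -0.81 ± 0.12, adjusted p = 0.000126), followed by MRPS25 (-0.84), MRPL3 (-1.28), MRPL11 (-1.95) and MRPL12 (-1.48). In shDNMT1 it was MRPL3, at 234 and 179 CPM in DMSO and 90.7 and 80.3 in PMA (log2 fold change -1.27 ± 0.22, adjusted p = 0.000403), then MRPL11 (-2.18), MRPL42 (-0.92), MRPL16 (-1.48) and MRPS34 (-1.53). In shDNMT3B it was MRPS27 again, at 98.1 and 91.2 against 61.1 and 60.2 CPM (log2 fold change -0.64 ± 0.12, adjusted p = 0.00101), then MRPL12 (-1.51), MRPL11 (-1.79), MRPS7 (-0.86) and MRPS34 (-1.38). MRPL11, MRPL12 and MRPL48 had log2 fold changes of -1.47 or lower in all 4 lines.

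The genes followed whatever their change varied less uniformly. MRPL58 fell in shDNMT1, from 34.5 and 31.5 to 22.8 and 18.0 CPM (log2 fold change -0.69, adjusted p = 0.0158). That call was lost without the first DMSO library (-0.627) or the second PMA library (-0.529) of the line. In shDNMT3B it fell from 50.5 and 41.5 to 25.1 and 24.1 CPM (-0.90, adjusted p = 0.00413). In shUHRF1 it stood at 26.3 and 26.5 against 20.9 and 15.8 CPM (-0.53, adjusted p = 0.0539, and 0.00193 with the block). MRPS12 had log2 fold changes of -0.57, -0.51 and -0.59 in shUHRF1, shDNMT1 and shDNMT3B, and passed with the block in shUHRF1 and shDNMT3B only (adjusted p = 0.0392 and 0.0368 with the block). MRPS18B fell in shDNMT3B, from 49.3 and 40.9 to 31.3 and 30.2 CPM (log2 fold change -0.55, adjusted p = 0.0241), a call lost without 3 of the 4 libraries in turn, the second DMSO library being the exception. MRPL32, which had risen in shNC, had log2 fold changes of 0.26, 0.17 and 0.52 in the other lines, of which that in shDNMT3B passed only with the block (adjusted p = 0.0628, and 0.00173 with the block).

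Across the 4 lines, 18 of the 78 genes fell in every one, against 13.5% of all tested genes, and 41 did so with the block, against 19.2%. The 18 were MRPL3, MRPL9, MRPL11, MRPL12, MRPL20, MRPL23, MRPL30, MRPL37, MRPL45, MRPL48, MRPL51, MRPL57, MRPS7, MRPS9, MRPS15, MRPS16, MRPS27 and MRPS34, all listed because they met the count. In the opposite direction only MRPS10 rose in every line, against 19.1% of all tested genes, and MRPS6 joined it with the block, against 24.2%. MRPS10 was at 78.8 and 94.6 CPM in shUHRF1 DMSO and 134 and 119 in PMA (log2 fold change 0.55), at 107 and 100.2 against 141 and 138 CPM in shDNMT1 (0.43), and at 98.5 and 90.6 against 121 and 125 CPM in shDNMT3B (0.38). In shDNMT1 and in shDNMT3B its call was lost when any 1 of the 4 libraries was left out, and in shUHRF1 without the first DMSO library. With upper-quartile factors it passed in shNC (log2 fold change 0.51) but not in the other lines (0.14 to 0.24). MRPS6 rose in shUHRF1 (54.0 and 37.6 to 186 and 130 CPM) and in shDNMT3B (71.0 and 39.5 to 206 and 139 CPM), by log2 fold changes of 1.79 and 1.64. In shDNMT1 it was at 78.8 and 51.2 CPM in DMSO and 119 and 94.1 in PMA, a log2 fold change of 0.71 that passed only with the block (adjusted p = 0.105, and 1.38e-05 with the block). No gene was called in opposite directions in 2 lines. In all, 57 genes had negative log2 fold changes in all 4 lines and 5 had positive ones, and 27 were called in no line (8 with the block). The shares of all tested genes for these counts are not given here, so they do not set the family apart.

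**Figure D4:**
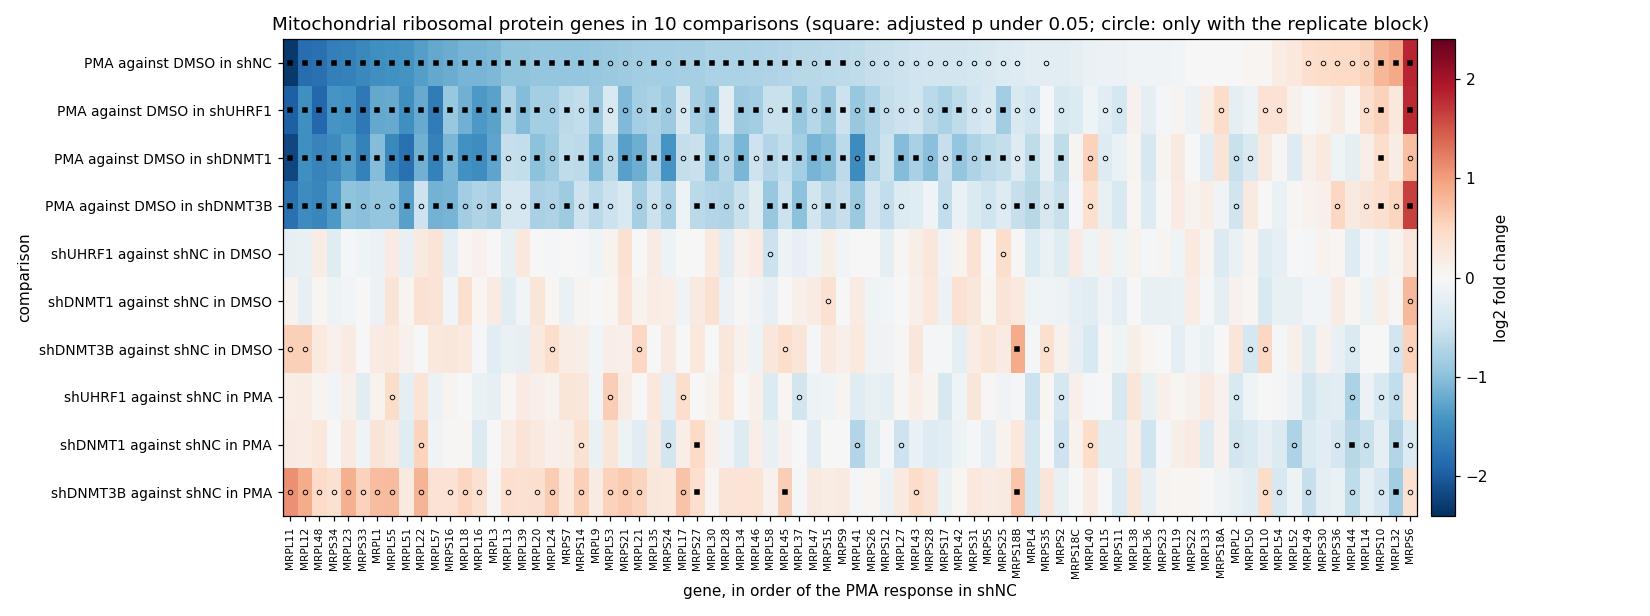
Log2 fold change (colour scale) of the 78 genes (columns, in order of the PMA response in shNC) in 10 comparisons (rows), with squares for adjusted p under 0.05 and circles for genes that passed only with the replicate block. The 4 upper rows, PMA against DMSO in each line, are mostly blue with 22 to 40 falls each, and the 6 lower rows, hairpin line against shNC, hold few squares.

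The fixed groups that surround the ribosome were set beside it in shNC, where 26.0% of all tested genes fell and 28.4% rose, and 32.6% and 34.5% with the block. Of the 5 ribosomal proteins listed under other symbols, PTCD3 (log2 fold change -0.82, adjusted p = 0.00293) and DAP3 (-0.62, adjusted p = 0.0342) fell, GADD45GIP1, AURKAIP1 and CHCHD1 passed only with the block (log2 fold change -0.70, -0.90 and -0.40), which made 5 of 5 lower, and the list median was -0.70. Of 25 genes of ribosome assembly and rRNA maturation 6 fell and none rose (12 and 5 with the block, median -0.34), a share of falls below that of all genes without the block. Among them were the assembly factor RBFA, from 16.7 and 23.6 to 5.83 and 6.93 CPM (log2 fold change -1.66, adjusted p = 0.000152), METTL17 (-0.98) and the rRNA methyltransferases MRM1 (-1.74) and MRM2 (-0.82). Of 14 translation factors 2 fell and 2 rose (6 and 2 with the block, median -0.12), both shares below those of all genes without the block. The elongation factor TUFM went from 517.5 and 334 to 175 and 136 CPM (log2 fold change -1.46, adjusted p = 0.00103) and MTRFR fell by 1.06 on the log2 scale, whereas MTFMT, which formylates the initiator tRNA, rose by 1.42 and the release factor MTRF1L by 0.78. Of 17 mitochondrial aminoacyl-tRNA synthetases 6 fell and none rose (8 and none with the block, median -0.33), among them NARS2 (-1.17, adjusted p = 0.000856), HARS2 (-0.84) and SARS2 (-0.81). Of 11 genes of mitochondrial DNA transcription and replication 2 fell, LRPPRC (-0.79) and SLIRP (-1.30), and 2 rose, POLRMT (0.67) and TFB2M (1.26), against 3 and 4 with the block, both shares below those of all genes without the block. The median of this list was 0.22 in shNC but -0.49, -0.40 and -0.18 in shUHRF1, shDNMT1 and shDNMT3B, where 5, 5 and 1 of its genes fell and 1, 3 and 0 rose.

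The RNAs made inside the organelle were less certain. None of the 13 mitochondrially encoded protein genes passed the test in shNC (median log2 fold change -1.07), and 12 fell with the block, among them MT-ND5 at 14070 and 4732 CPM in DMSO and 4985 and 2110 in PMA (log2 fold change -1.41, adjusted p = 0.12, and 2.23e-06 with the block). MT-ND4L, MT-CO3 and MT-ATP8 had log2 fold changes of -1.41, -1.47 and -1.01. The ribosomal RNAs MT-RNR1 and MT-RNR2, of which little is expected after poly(A) selection, had log2 fold changes of 0.03 and -0.30 (adjusted p = 0.98 and 0.796) and passed neither fit. The mitochondrially encoded share of all counts was higher in replicate 1 of every group, at 7.71% to 29.0%, than in replicate 2, at 3.92% to 14.5%.

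Of 9 regulators of mitochondrial biogenesis, MYC, which activates ribosome genes, fell in all 4 lines, from 125 and 186.5 to 61.6 and 70.2 CPM in shNC (log2 fold change -1.24, adjusted p = 0.000727) and by 1.15, 1.25 and 1.57 on the log2 scale in shUHRF1, shDNMT1 and shDNMT3B. The coactivator PPARGC1B rose in all 4 (log2 fold change 1.46 in shNC, adjusted p = 0.000974, and 1.49, 1.93 and 0.75 in the other lines). ESRRA, a nuclear receptor it works with, rose in shNC from 25.9 and 22.9 to 52.1 and 54.6 CPM (log2 fold change 1.13, adjusted p = 0.000454), and had log2 fold changes of 0.19, 0.12 and 0.16 in the other lines, which did not pass. The difference of its response from that in shNC passed in shUHRF1, shDNMT1 and shDNMT3B only with the block (adjusted p = 0.181, 0.0541 and 0.0636, and 0.00223, 0.000321 and 0.000458 with the block). NRF1, GABPB1, YY1 and PPRC1 had log2 fold changes of 0.21, 0.32, 0.17 and 0.05 in shNC and passed neither fit, and GABPA (0.67) passed only with the block (adjusted p = 0.27, and 0.0023 with the block). PPARGC1A was nearly absent, at 0.316 and 0.16 CPM in DMSO and 0 and 0.0722 in PMA.

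Genes that share a start region with a mitochondrial ribosomal protein gene were also measured. The partner was tested for all 26 members, MRPL46 and MRPS11 being the partners of each other, and in shNC 9 partners fell with PMA and 3 rose, where 26.0% and 28.4% of all tested genes did. In 5 pairs both genes fell: MRPL13 with MTBP, MRPL30 with MITD1, MRPL51 with NCAPD2, MRPL57 with SKA3 and MRPS27 with PTCD2, pairs named after their values were seen. NCAPD2 and SKA3, which act in mitosis, fell by 3.05 and 4.05 on the log2 scale, against 1.44 and 1.23 for MRPL51 and MRPL57. Exons of NCAPD2 on the opposite strand overlap 27.6% of the MRPL51 exon length, so the counts of this pair may not be separate. No pair was called in opposite directions, although partners rose beside MRPL14 (TMEM63B, 2.21), MRPL54 (APBA3, 2.82) and MRPL21 (IGHMBP2, 0.79), none of which was itself called.

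The libraries labelled for a hairpin target were close to shNC in DMSO, the comparison that asks what the hairpins did in resting cells. The 3 lines shared the same 2 shNC libraries. In shUHRF1 no gene was called in either direction (0.17% of all genes higher and 1.15% lower), and in shDNMT1 none either (0.57% and 3.39%). At an unadjusted p under 0.05 there were 2 genes in each, and DESeq2 called none. For this and the later comparisons, the shares of all genes at the unadjusted threshold are not given here. The exception was MRPS18B in the libraries labelled shDNMT3B, at 49.3 and 40.9 CPM against 26.1 and 22.3 in shNC (log2 fold change 0.90 ± 0.18, adjusted p = 0.0131), 1 gene higher and none lower where 1.62% and 2.89% of all genes were called. That call was lost without the second shNC or the first shDNMT3B library. With the block 1 gene was higher and 1 lower in shUHRF1 (4.59% and 6.87% of all genes), 2 and none in shDNMT1 (4.34% and 9.23%), and 9 and 3 in shDNMT3B (7.28% and 11.4%).

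After PMA the lines differed more, again against 2 shared shNC libraries. In shUHRF1 no gene was called (2.04% of all genes higher and 1.65% lower), with 5 genes at an unadjusted p under 0.05 and 1 lower by DESeq2. In shDNMT1, MRPS27 was higher and MRPL32 and MRPL44 were lower, where 8.5% and 6.35% of all genes were called. MRPS27 was at 65.3 and 61.4 CPM against 45.5 and 45.7 in shNC (log2 fold change 0.48, adjusted p = 0.0223), MRPL32 at 41.2 and 36.5 against 69.8 and 56.7 CPM (-0.70, adjusted p = 0.0412), and MRPL44, which resembles an RNase III, at 75.03 and 62.4 against 119 and 98.1 CPM (-0.66, adjusted p = 0.0496). Each of these 3 calls was lost when any 1 of the 4 libraries was left out. With the block the counts were 3 higher and 6 lower in shUHRF1 (8.35% and 6.88% of all genes), and 4 and 11 in shDNMT1 (16.3% and 15.1%).

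In the libraries labelled shDNMT3B after PMA, MRPS18B (31.3 and 30.2 CPM against 20.4 and 18.4 in shNC, log2 fold change 0.66, adjusted p = 0.0226), MRPL45 (44.5 and 40.9 against 31.1 and 25.4 CPM, 0.60, adjusted p = 0.029) and MRPS27 (61.1 and 60.2 against 45.5 and 45.7 CPM, 0.41, adjusted p = 0.0337) were higher. MRPL45 helps to hold the ribosome at the inner membrane. MRPL32 was lower, at 41.0 and 29.8 against 69.8 and 56.7 CPM (log2 fold change -0.84, adjusted p = 0.0149). Over all genes 11.3% were higher and 9.05% lower. The median log2 fold change of the 78 was 0.24, against 0.04 over all genes, and 22 of them were below 0. In the same libraries the T, B and NK cell markers summed to between 158 and 186 CPM, against between 69.4 and 73.0 in shNC PMA. NCAM1 alone gave 177 and 153 CPM of that sum, against 67.0 and 64.2 in shNC PMA, while CD3E, CD3D, CD2 and MS4A1 were at 0. The mitochondrially encoded share was 19.5% and 9.35% against 10.3% and 4.76%. The 13 mitochondrially encoded protein genes had a median log2 fold change of 0.74, with none called without the block and 13 higher with it. The part of these values in the shift was not tested. With the block 26 were higher and 5 lower, against 20.5% and 19.5% of all genes, MRPL11 (1.12), MRPL12 (0.90) and MRPL23 (0.87) among the higher. MRPL11 was at 39.1 and 33.8 CPM in shDNMT3B PMA and at 19.4 and 14.6 in shNC PMA without passing in the fit without the block (adjusted p = 0.0805). In these same libraries DNMT3B mRNA itself was higher than in shNC, at 2.74 and 3.19 against 1.26 and 1.59 CPM. Whether the shift goes with a loss of the target was not tested. The calls of MRPS18B, MRPL45 and MRPS27 were lost when any 1 of the 4 libraries was left out, and that of MRPL32 without the first shNC or the second shDNMT3B library.

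Whether the response to PMA differed between a hairpin line and shNC was tested as the difference of the 2 responses. No gene of the family passed in any of the 3 lines. Over all genes 0.739% had a higher and 0.109% a lower response in shUHRF1, 5.64% and 1.07% in shDNMT1, and 5.08% and 1.7% in shDNMT3B. At an unadjusted p under 0.05 there were 1, 3 and 0 genes, and DESeq2 called none. With the block 1 response was lower in shUHRF1 (6.02% of all genes higher and 2.47% lower), 1 higher and 10 lower in shDNMT1 (12.8% and 5.81%), and 4 higher and 1 lower in shDNMT3B (12.6% and 6.97%). The lower responses in shDNMT1 included MRPS6, whose rise was smaller by 1.11 on the log2 scale than in shNC (adjusted p = 0.239, and 5.49e-05 with the block), MRPL32 (-0.74 with the block) and MRPL44 (-0.71 with the block).

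Values of the family moved with the replicate number. In each of the 8 groups the median log2 difference between replicate 1 and replicate 2 over the 78 genes was positive, between 0.24 in shDNMT3B PMA and 0.47 in shNC DMSO, while over all tested genes it lay between -0.03 and 0. Of the 78, 54 were higher in replicate 1 in all 8 groups, against 12.9% of all tested genes, and 1, MRPL49, was lower in all 8, against 12.2%. The largest mean gap belonged to MRPL41, at 105 and 38.0 CPM in shNC DMSO (log2 difference 1.04 over the 8 groups), which passed the PMA test in no line without the block and in all 4 with it. Short transcripts moved the same way: with all tested genes divided into 3 classes of like size by canonical transcript length, the median gap was between 0.13 and 0.25 in the shortest class (up to 2081 bases), and between -0.21 and -0.07 in the longest (from 4060 bases). The family had 61 of its 78 genes in the shortest class and 6 in the longest.

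**Figure D5:**
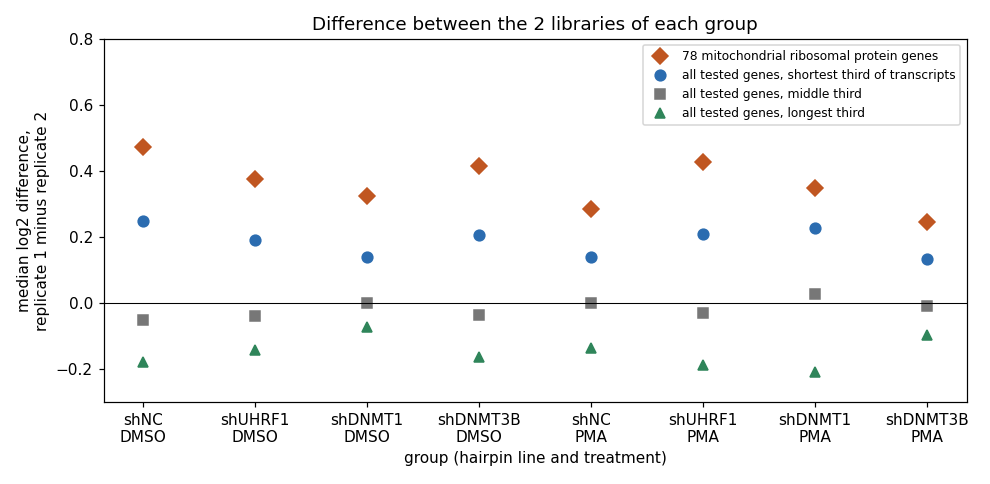
Median log2 difference between replicate 1 and replicate 2 (y axis) in each group (x axis) for the 78 genes and for all tested genes by class of canonical transcript length. The diamonds of the family lie between 0.244 and 0.474, above the circles of the shortest class in all 8 groups.

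Transcript length also went with the response to PMA. In shNC the median log2 fold change over all tested genes was -0.38 in the shortest class, 0.04 in the middle class and 0.28 in the longest class. The 61 family members of the shortest class had a median of -0.62, the 11 of the middle class -0.81 and the 6 of the longest class -0.39. In shUHRF1, shDNMT1 and shDNMT3B the shortest class of all genes stood at -0.32, -0.39 and -0.25, and the family members in it at -0.54, -0.63 and -0.51. In these 4 lines and 3 classes the members lay below the median of all genes of their class, and the part that length has in the fall was not tested. Scaling by upper quartiles moved the median of all genes to between -0.22 and -0.31 in the 4 PMA comparisons and that of the family to between -0.73 and -0.91.

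Pseudogenes could take reads from these genes. The table held 79 pseudogene rows with symbols of the family, 13 of which had any count, 930 in all 16 libraries together against 1150112 for the 78 genes. Exons of another gene on the same strand overlapped 18 of the 78 genes, over more than 20% of the exon length in 9, and exons on the opposite strand overlapped 30. The strand setting of the counting is not given in the sources used here.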

How the data were processed

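Gene counts of 16 libraries of THP-1 cells were analysed. Per the labels and methods, the authors prepared stranded mRNA libraries, read in pairs of 150 bp, aligned them to hg38 with STAR 2.4.0b and deposited whole-number counts per gene, made with HTSeq 0.6.1p1; the submitters' processing notes also name Cufflinks 2.1.1 and edgeR. The annotation release is not given in the sources used here. Gene types, positions and names came from GENCODE release 44. The members and gene lists were chosen with earlier results of these data known.

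Of the 60676 rows, 16503 passed the low-count filter of edgeR 4.0.16 (R 4.3.3), which asked for a count of 10 and a total of 15. A single robust quasi-likelihood model of the 8 groups, with TMM scaling, gave the 13 comparisons. Calls were an adjusted p (Benjamini-Hochberg over all tested genes) under 0.05 with no limit on the fold. Levels are TMM-scaled CPM. Replicate numbers from the column names paired the libraries: deviations from group means of same-numbered libraries correlated above 0.1 in 28 of 28 pairs of groups (0.22 to 0.508), and the fit with this block stands beside the counts it moved. Replicates differed beyond counting error (chi-square per degree of freedom 48.3 to 164.5), so none was the same library counted again. This does not tell separate cultures from repeat preparations of the same culture. Genes named were the 10 largest falls and rises called in shNC with a mean of at least 1 CPM, up to 5 calls of smallest adjusted p elsewhere, the ends of the order of levels, 8 members followed always, up to 4 genes a list and all biogenesis regulators. The test was also run on simulated counts with known changes, drawn without a replicate effect, and the outcome is not given here. Alternatives were the block, DESeq2 1.42.0, upper-quartile factors, no filter on low counts, removal of mitochondrially encoded genes, an exact test after DEGES scaling, which the authors' TCC tool uses, and leaving out each library. One gene that the naming rule chose from the lists is not reported here.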

Additional observations from a re-analysis of the deposited data

Results flagged for a closer look

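None of the 78 genes had a response to PMA that differed between a hairpin line and shNC in the fit without the block. Among the other genes named, the macrophage marker ITGAM did. It was at 19.6 and 27.0 CPM in shNC DMSO and 194 and 215 in shNC PMA, and at 10.6 and 14.9 against 275 and 289 CPM in the libraries labelled shDNMT1, so that its log2 response was higher by 1.33 there. It rose in both libraries of both lines.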

How the results depend on the processing

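Counts of calls moved with the replicate block and with single libraries. With the block, which pairs same-numbered libraries, falls with PMA numbered 52, 54, 55 and 47 and rises 8, 6, 3 and 6 in shNC, shUHRF1, shDNMT1 and shDNMT3B, and 41 genes fell and 2 rose in all 4 lines. Against shNC in DMSO it gave 1 higher and 1 lower in shUHRF1, 2 higher in shDNMT1, and 9 higher and 3 lower in shDNMT3B. In PMA it gave 3 higher and 6 lower, 4 and 11, and 26 and 5. Of the differences in response it gave 1 lower in shUHRF1, 1 higher and 10 lower in shDNMT1, and 4 higher and 1 lower in shDNMT3B. The shares of all genes with the block stand beside these counts in the text above. Upper-quartile factors gave 40 falls in shDNMT3B, 37 in all 4 lines, rises of 1, 0 and 1 in shUHRF1, shDNMT1 and shDNMT3B and 0 in all 4, and against shNC in PMA 0 lower in shDNMT1 and 7 higher in shDNMT3B. Without the low-count filter 36 fell in shDNMT3B and 30 in all 4 lines, 1 rose in shUHRF1 and 1 in shDNMT3B, 1 was higher in shDNMT1 in DMSO, and in PMA 1 was lower in shUHRF1, 0 higher and 4 lower in shDNMT1, and 9 higher and 2 lower in shDNMT3B, with 1 lower response in shDNMT1. Without mitochondrially encoded genes 1 rose in shDNMT3B (24.4% of all genes) and 0 in all 4 lines. In PMA 1 was lower in shDNMT1 (6.35%). The summed level was then 5651 CPM in shDNMT1 DMSO, 3668 in shNC PMA and 4086 in shDNMT3B PMA. DESeq2 gave, in PMA, 1 lower in shUHRF1 (2.95% of all genes) and 6 higher and 3 lower in shDNMT3B (11.7% and 11.3%). The DEGES exact test gave rises of 1, 2 and 1 in shUHRF1, shDNMT1 and shDNMT3B (27.9%, 30.2% and 26.3% of all genes). In PMA it gave 0 higher in shDNMT1 (9.8%) and 10 higher and 3 lower in shDNMT3B (15.1% and 14.0%). Among these alternatives, the shares of all genes for all 4 lines are given for the block only. The cause of these moves was not tested.

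Leaving out 1 library at a time, falls with PMA lay between 11 and 38 in shNC, 13 and 35 in shUHRF1, 15 and 40 in shDNMT1, and 6 and 27 in shDNMT3B, and rises between 3 and 3, 1 and 3, 0 and 0, and 1 and 2. In shNC there were 12 falls without the first DMSO library and 11 without the second PMA library, in shUHRF1 17 and 13, in shDNMT1 19 and 15, and in shDNMT3B 6 and 6, with 11 without its first PMA library. Against shNC, between 0 and 1 gene was higher in shDNMT3B in DMSO, between 0 and 1 was lower in each of the 3 lines in PMA, and 0 were higher in PMA. A group left with 1 library was assumed to vary like the others. The shares of all genes in these fits are not given here, so the counts cannot be set against them. With upper-quartile factors the sign of the log2 fold change turned for MRPS18C in shDNMT1 (-0.208) and for MRPS30 in shUHRF1, shDNMT1 and shDNMT3B (-0.219, -0.023 and -0.11). With 1 library left out it turned within the range of MRPS18A in shNC (-0.144 to 0.126), of MRPS18C in shNC (-0.449 to 0.017), shUHRF1 (-0.597 to 0.024), shDNMT1 (-0.106 to 0.169) and shDNMT3B (-0.195 to 0.092), of MRPS30 in shUHRF1 (-0.24 to 0.37) and of MRPL19 in shNC (-0.286 to 0.188). None of these genes was called in the comparison as reported. Of 156 list counts under alternatives 126 were within 1.5 times the count reported.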
